A study of Mus musculus with 12 samples.

Results

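CD8, CD4 and the T cell receptor complex were followed in skin of a mouse model of alopecia areata (AA), an autoimmune hair loss, through 10 genes: the co-receptor chains Cd8a, Cd8b1 and Cd4, the CD3 chains Cd3d, Cd3e and Cd3g, the zeta chain Cd247, the kinases Lck and Zap70, and the adhesion receptor Cd2. The members were all probe sets of the array annotated with these symbols alone, and 9 of the 10 genes had at least 1, with 19 probe sets among the 45037 tested. Over the whole array 18193 genes had a probe set of their symbol alone. Lck was not analysed here. None of the 19 was shared with another symbol.

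Skin came from 6 C3H/HeJ mice that carried a graft and already had the disease. Of these, 3 received topical baricitinib, an inhibitor of the kinases JAK1 and JAK2, and 3 received vehicle control. Each mouse gave skin after 12 weeks (week 12) and at the start of treatment (week 0), so that the 4 groups of 3 arrays are baricitinib week 12, baricitinib week 0, vehicle week 12 and vehicle week 0. All 4 groups share the C3H/HeJ background and the graft, no mouse without a graft was among them, and the mice, grafted as young adults with skin of alopecic C3H/HeJ donors, were left until hair loss was nearly complete before treatment. Both treatments were applied daily. Within a treatment the labels carry the same 3 numbers at both times, which were taken as animal numbers, so that replicates with 1 number are given as the same mouse. RNA was taken from whole skin biopsies, which hold many cell types.

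T cells recognise peptides bound to MHC molecules through an antigen receptor whose chains do not signal themselves. The CD3 and zeta chains that surround it carry the signalling motifs, Lck phosphorylates these, and Zap70 then binds to them and passes the signal on. CD8 holds the cell to MHC class I and marks killer T cells, while CD4 holds it to MHC class II and marks helper and regulatory T cells. CD3 chains are also made by gamma delta T cells, which live in normal mouse epidermis and mostly lack both co-receptors.

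Transcript levels were read on a one-colour array and are given as RMA values on the log2 scale, where 1 unit is a doubling. A probe set is a group of short probes for 1 transcript, levels are compared between arrays only within a probe set, and a difference was called when its limma p-value, adjusted over all 45037 probe sets, was under 0.05. The median of all probe sets lay between 5.16 and 5.35 on the 12 arrays. Of the member probe sets, 5 were above it on all arrays (Cd3d, Cd3e, Cd3g, Cd2 and 1 of Zap70), 6 were under it on all arrays and 8 varied. The arrays' own detection calls were not used, and low values are therefore not exact. The 2 arrays with the lowest median correlation with the other arrays were picked for a check. They were baricitinib week 0 replicate 2, with 0.945, and baricitinib week 12 replicate 1, with 0.951. The other 10 ran from 0.955, at baricitinib week 12 replicate 3, to 0.979, so that the cut below 0.955 is narrow. The authors left a baricitinib array of each time out of their own analysis after quality control, and whether these are among the 12 arrays is not given in the sources used here. All 12 arrays were used here, and the Cd8a results are also given without the pair with the lowest correlations.

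The alpha chain of CD8 was the only member with a called difference. Cd8a (chromosome 6, 71373427 to 71379171, GRCm38.p6) encodes the chain that binds MHC class I and Lck. Its brightest probe set, 1444078_at, read 3.79, 6.61 and 4.59 at baricitinib week 12 and 9.80, 9.37 and 8.69 at baricitinib week 0. It read 9.80, 9.19 and 9.17 at vehicle week 12 and 9.21, 9.78 and 10.27 at vehicle week 0. The 3 arrays of skin after 12 weeks of baricitinib were the lowest of the 12, and the remaining 9 lay within 8.69 to 10.27. The mean was 5.0 ± 1.46 at baricitinib week 12 and 9.29 ± 0.56 at baricitinib week 0 (SD, n = 3 each), a difference of -4.29 (SE 0.60, limma adjusted p = 0.00912). Against vehicle week 12, with 9.39 ± 0.36, the difference was -4.39 (SE 0.60, limma adjusted p = 0.0109). In RNA of whole skin, fewer cells of a type and less RNA in each cell cannot be told apart. The paper scored Cd8a too, and by staining it reports less CD8 infiltration with topical baricitinib than with vehicle. It also reports a loss of CD8 cells that carry the receptor NKG2D. These are measures of protein and cells, and they were not read here.

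A second probe set of Cd8a gave the same picture. Probe set 1425335_at read 4.44, 6.53 and 3.94 at baricitinib week 12, against 9.89, 8.52 and 9.07 at baricitinib week 0. At vehicle week 12 it read 9.36, 9.24 and 8.59, and at vehicle week 0 it read 9.53, 9.40 and 9.72. The 3 arrays of baricitinib week 12 were again the lowest, and mouse 2 kept the highest level of the 3. The difference was -4.19 from baricitinib week 0 (SE 0.57, limma adjusted p = 0.00777) and -4.09 from vehicle week 12 (SE 0.57, limma adjusted p = 0.0118). On both probe sets 2 of the 3 baricitinib week 12 arrays were under the array median, so that the size of the fall is not exact.

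Within each mouse, Cd8a on 1444078_at changed between week 0 and week 12 by -6.02, -2.76 and -4.10 in the 3 baricitinib mice and by 0.59, -0.59 and -1.10 in the 3 vehicle mice. On 1425335_at the changes were -5.45, -1.99 and -5.12 with baricitinib and -0.17, -0.16 and -1.13 with vehicle. Every baricitinib mouse fell by more than every vehicle mouse on both. The change with baricitinib minus the change with vehicle was -3.92 on 1444078_at (SE 0.85, limma adjusted p = 0.233) and -3.70 on 1425335_at (SE 0.81, limma adjusted p = 0.239), so that this difference of changes was not called. No probe set of the array was called lower in it, which is 0% of those tested, and at an unadjusted p under 0.05 limma gave 1466 lower and 1359 higher of 45037, with 3 lower and 1 higher among the 19 members.

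**Figure D1:**
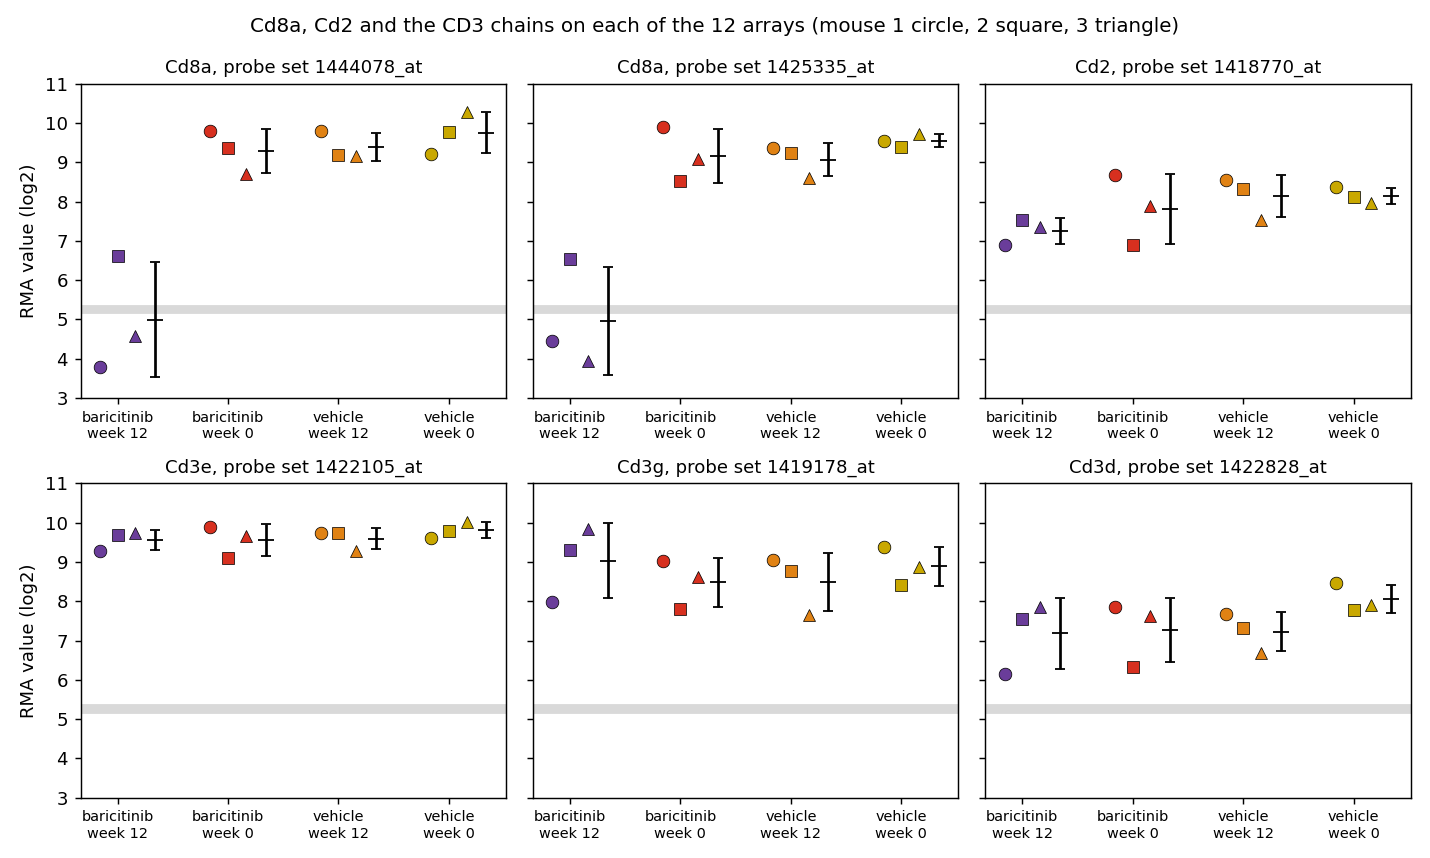
RMA values (log2, vertical axis) of 6 member probe sets on the 12 arrays, by group (horizontal axis, 3 mice each). Circles, squares and triangles are mice 1, 2 and 3 of a treatment, black bars the mean and SD, and the grey band the range of the array medians (5.16 to 5.35). The 3 arrays of baricitinib week 12 are far below all others for both Cd8a probe sets, from 3.79 to 6.61, while those of Cd3e lie among the others.

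The other 3 probe sets of Cd8a were dimmer and were not called. Probe set 1451673_at read 3.69, 4.08 and 3.18 at baricitinib week 12, 5.54, 4.10 and 5.31 at baricitinib week 0, 5.64, 5.14 and 5.56 at vehicle week 12 and 7.01, 5.11 and 4.75 at vehicle week 0. All 3 baricitinib week 12 values were under the other 9, the highest, 4.08, only just under the 4.10 of the same mouse at week 0. Its differences were -1.34 from baricitinib week 0 (SE 0.55, limma adjusted p = 0.335) and -1.80 from vehicle week 12 (SE 0.55, limma adjusted p = 0.209). Probe sets 1440811_x_at and 1440164_x_at were under the median on all 12 arrays, and their differences lay between -0.60 and -0.15 in both comparisons.

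Cd8b1, which encodes the beta chain that pairs with Cd8a on most killer T cells, lies 35934 bases from Cd8a on chromosome 6 (71322788 to 71337492). Its only probe set read 3.59, 3.17 and 3.10 at baricitinib week 12, 3.97, 3.00 and 4.44 at baricitinib week 0, 4.52, 3.77 and 3.76 at vehicle week 12 and 5.82, 4.09 and 4.08 at vehicle week 0. Of these 12 values 11 were under the array median. The baricitinib week 12 values were all below those of vehicle week 12 and overlapped those of baricitinib week 0. The differences of -0.73 from vehicle week 12 (SE 0.49, 95% interval -1.80 to 0.34) and -0.51 from baricitinib week 0 (SE 0.49, 95% interval -1.58 to 0.55) did not pass (limma adjusted p = 0.69 and 0.757).

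Cd4 was low on every array. Its brighter probe set, 1419696_at, read 4.12, 4.81 and 3.94 at baricitinib week 12, 4.30, 4.19 and 4.13 at baricitinib week 0, 3.73, 4.68 and 4.14 at vehicle week 12 and 4.53, 3.92 and 3.65 at vehicle week 0. Both Cd4 probe sets were under the array median on all 12 arrays, and Cd4 was the only member gene of which this held. The 4 groups overlapped. The difference on 1419696_at was 0.08 from baricitinib week 0 (SE 0.32, 95% interval -0.62 to 0.79) and 0.11 from vehicle week 12 (SE 0.32, 95% interval -0.60 to 0.81), and on 1427779_a_at the same differences were -0.19 and -0.14, none of them called by limma (adjusted p from 0.905 to 0.971). At levels this low a change in helper T cell RNA may not be detectable.

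The 3 CD3 chains, which are part of the receptor complex, are encoded side by side on chromosome 9. Cd3g lies at 44969572 to 44980431, Cd3d 1337 bases further on at 44981769 to 44987052 and Cd3e 11682 bases beyond that at 44998735 to 45009663. Cd3e, the epsilon chain that pairs with each of the other two, read 9.27, 9.69 and 9.73 at baricitinib week 12 and 9.90, 9.11 and 9.66 at baricitinib week 0. It read 9.75, 9.73 and 9.28 at vehicle week 12 and 9.61, 9.80 and 10.02 at vehicle week 0. All 12 values lay within 9.11 to 10.02, and every pair of groups overlapped. The difference was 0.01 from baricitinib week 0 (SE 0.26, limma adjusted p = 0.995) and -0.03 from vehicle week 12 (SE 0.26, limma adjusted p = 0.993). The 95% intervals of these differences, -0.57 to 0.58 and -0.60 to 0.55, do not reach the fall of Cd8a.

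Cd3g, the gamma chain, read 7.98, 9.30 and 9.83 at baricitinib week 12, 9.02, 7.80 and 8.62 at baricitinib week 0, 9.04, 8.78 and 7.66 at vehicle week 12 and 9.38, 8.41 and 8.87 at vehicle week 0. Mice 2 and 3 were high at baricitinib week 12 and mouse 1 was low, and the groups overlapped. The differences were 0.55 from baricitinib week 0 (SE 0.52, 95% interval -0.58 to 1.69, limma adjusted p = 0.753) and 0.54 from vehicle week 12 (SE 0.52, 95% interval -0.59 to 1.67, limma adjusted p = 0.825).

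Cd3d, the delta chain, read 6.16, 7.56 and 7.85 at baricitinib week 12, 7.85, 6.33 and 7.63 at baricitinib week 0, 7.67, 7.33 and 6.69 at vehicle week 12 and 8.46, 7.79 and 7.90 at vehicle week 0. The groups at baricitinib week 12, baricitinib week 0 and vehicle week 12 overlapped, with differences of -0.08 (SE 0.49, 95% interval -1.16 to 1.00) and -0.04 (SE 0.49, 95% interval -1.12 to 1.04) from the other 2. The 3 vehicle week 12 values were all under those of vehicle week 0, with a difference of -0.82 that was not called (SE 0.49, limma adjusted p = 1).

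Cd3g also moved with a sign of RNA quality. On this array Actb has probe sets at its 3' end and its 5' end, and a larger 3' minus 5' difference goes with more degraded or less completely copied RNA. This difference was 3.52, 1.53 and 1.52 at baricitinib week 12, 3.25, 4.36 and 2.94 at baricitinib week 0, 3.19, 3.24 and 3.36 at vehicle week 12 and 1.62, 3.57 and 3.86 at vehicle week 0. The 3 arrays with the smallest differences, baricitinib week 12 replicates 2 and 3 and vehicle week 0 replicate 1, held the 3 highest Cd3g values, from 9.30 to 9.83 against 7.66 to 9.04 elsewhere. For Cd3d, 2 of these 3 arrays were among the 3 highest, and the 3 read 7.56 to 8.46 against 6.16 to 7.90 elsewhere. The part of RNA quality in the Cd3g and Cd3d values was not tested. For Cd8a on 1444078_at and 1425335_at, 2 of these 3 arrays, both of baricitinib week 12, were among the 3 lowest. Cd8a on 1444078_at was 3.79 at baricitinib week 12 replicate 1, whose Actb difference was 3.52. It was 9.21 at vehicle week 0 replicate 1, whose Actb difference was 1.62. The part of RNA quality in the Cd8a values was not tested.

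Cd247, the zeta chain, which carries more signalling motifs than any CD3 chain, was read by 4 probe sets. The brightest, 1426396_at, read 5.55, 6.11 and 6.55 at baricitinib week 12, 5.24, 4.76 and 5.19 at baricitinib week 0, 5.79, 5.92 and 5.66 at vehicle week 12 and 5.38, 5.42 and 5.92 at vehicle week 0. All 3 baricitinib week 12 values lay above those of baricitinib week 0 and overlapped those of vehicle week 12. The difference of 1.01 from baricitinib week 0 was not called (SE 0.28, limma adjusted p = 0.123), although without baricitinib week 12 replicate 1 it was 1.26 with a limma adjusted p of 0.0328. From vehicle week 12 it was 0.28 (SE 0.28, limma adjusted p = 0.842).

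Of the other probe sets of Cd247, 2 were under the median on all 12 arrays and 1420716_at was under it on 7. On 1426079_at the values were 3.81, 4.48 and 4.81 at baricitinib week 12, 4.36, 3.51 and 3.26 at baricitinib week 0, 2.57, 3.22 and 3.54 at vehicle week 12 and 4.36, 3.34 and 4.0 at vehicle week 0. Here the baricitinib week 12 values were above those of vehicle week 12 and overlapped those of baricitinib week 0, the reverse of the brightest probe set. The difference from vehicle week 12 was 1.26 (SE 0.40, limma adjusted p = 0.228) and that from baricitinib week 0 was 0.66 (SE 0.40, limma adjusted p = 0.577). All 8 differences of the 4 probe sets in these 2 comparisons were above 0, from 0.15 to 1.26, and none was called. On 1426079_at the 3 arrays with the smallest Actb difference read 4.36 to 4.81, against 2.57 to 4.36 elsewhere, and on 1426396_at, 1426079_at and 1452539_a_at 2 of these 3 arrays were among the 3 highest. The part of RNA quality in the Cd247 values was not tested.

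Zap70, the kinase that docks on the phosphorylated CD3 and zeta chains, was read by 3 probe sets. The brightest, 1440178_x_at, read 6.52, 6.70 and 6.42 at baricitinib week 12, 8.06, 7.79 and 7.14 at baricitinib week 0, 7.87, 7.84 and 7.97 at vehicle week 12 and 6.90, 7.52 and 8.45 at vehicle week 0. The 3 baricitinib week 12 values were the lowest of the 12. The difference was -1.11 from baricitinib week 0 (SE 0.36, limma adjusted p = 0.189) and -1.34 from vehicle week 12 (SE 0.36, limma adjusted p = 0.146), and neither was called. An _x_at probe set can also read related sequences of other genes. On 1440178_x_at the 3 arrays with the smallest Actb difference read 6.42 to 6.90, against 6.52 to 8.45 elsewhere. The part of RNA quality in the Zap70 values was not tested.

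The second Zap70 probe set, 1422701_at, read 4.71, 4.60 and 4.75 at baricitinib week 12, 5.04, 4.33 and 4.64 at baricitinib week 0, 5.52, 5.29 and 5.38 at vehicle week 12 and 5.32, 4.90 and 5.37 at vehicle week 0. It was lower at baricitinib week 12 than at vehicle week 12 without overlap, by -0.71 (SE 0.23, limma adjusted p = 0.251), and differed by 0.02 from baricitinib week 0 (SE 0.23, limma adjusted p = 0.985). On 1439749_at the same differences were -0.26 and 0.08, with overlapping groups. The 3 probe sets therefore differ on the size of any change in Zap70.

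Cd2, an adhesion receptor of T cells and NK cells that binds CD48 in the mouse, read 6.89, 7.52 and 7.34 at baricitinib week 12, 8.67, 6.90 and 7.88 at baricitinib week 0, 8.56, 8.31 and 7.54 at vehicle week 12 and 8.37, 8.12 and 7.96 at vehicle week 0. The baricitinib week 12 values were all under those of vehicle week 12, with 7.52 beside 7.54 as the nearest values, and overlapped those of baricitinib week 0. The differences were -0.89 (SE 0.41, 95% interval -1.79 to 0.01, limma adjusted p = 0.47) and -0.57 (SE 0.41, 95% interval -1.47 to 0.33, limma adjusted p = 0.661), and neither was called.

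**Figure D2:**
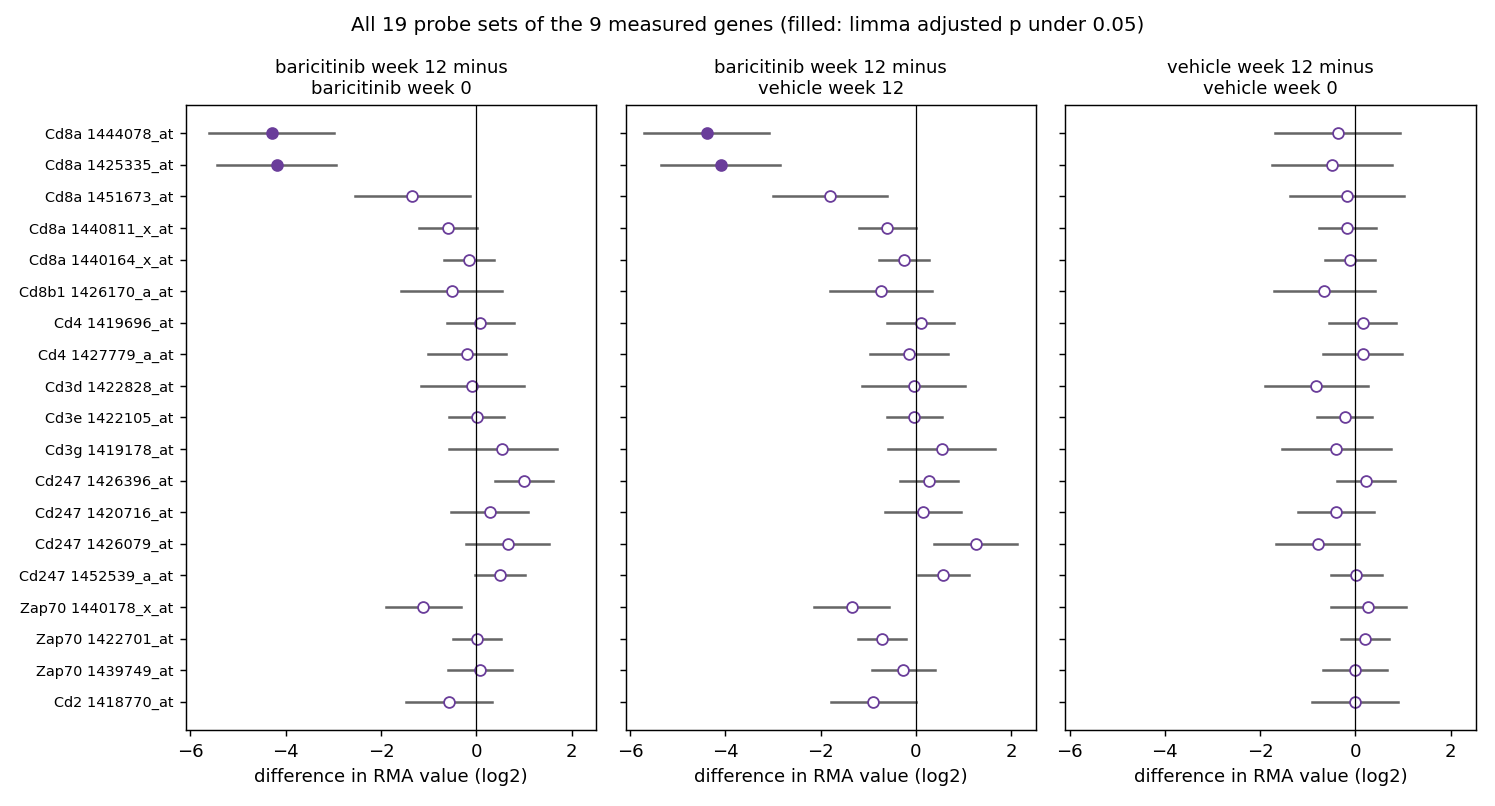
Differences in RMA value (log2, horizontal axis) of all 19 member probe sets (vertical axis), with 95% intervals, for baricitinib week 12 against baricitinib week 0, baricitinib week 12 against vehicle week 12, and vehicle week 12 against vehicle week 0. Filled points were called by limma: 2 probe sets of Cd8a in each of the first 2 comparisons, from -4.39 to -4.09, and none with vehicle.

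Over all members, 2 of 19 probe sets were called lower and 0 higher in baricitinib week 12 against baricitinib week 0, both of Cd8a, where 0.875% of all probe sets were called lower and 0.362% higher. Against vehicle week 12 the same 2 were called lower and 0 higher, where 0.429% of all probe sets were called lower and 0.151% higher. With limma at an unadjusted p under 0.05, 4 member probe sets were lower and 1 higher in the first of these comparisons, and 5 were lower and 2 higher in the second. Over all 45037 probe sets the same counts were 2726 lower and 2806 higher in the first, and 2705 lower and 2198 higher in the second. Both comparisons share the arrays of baricitinib week 12. The median difference of the 19 probe sets was -0.08 from baricitinib week 0, beside 0.00 over all probe sets, and -0.24 from vehicle week 12, beside 0.01.

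Groups that did not overlap were counted as well. At baricitinib week 12, 5 of the 19 probe sets were below all values of baricitinib week 0 and 1 was above, where this held for 7.91% of all probe sets below and 7.97% above. Against vehicle week 12, 8 of the 19 were below and 2 above, where 9.69% of all probe sets were below and 7.44% above. The 8 were 4 of Cd8a, 2 of Zap70 and those of Cd8b1 and Cd2. The 2 above were both of Cd247. Since 12 of the 19 probe sets belong to Cd8a, Cd247 and Zap70, these counts are not counts of independent genes.

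In vehicle mice no member was called between week 12 and week 0, and none between the treatments at week 0. In both comparisons 0% of all probe sets were called lower. At an unadjusted p under 0.05, limma gave 0 member probe sets in the first and 1 in the second, Zap70 on 1422701_at, with a difference of -0.53 (SE 0.23, limma adjusted p = 1) and overlapping groups. Over all 45037 probe sets these counts were 551 lower and 557 higher in the first, and 310 lower and 198 higher in the second. The groups at week 0 did not overlap for 1 member probe set, Cd247 on 1426396_at, which was lower in baricitinib mice, where 2.73% of all probe sets were lower without overlap. Cd8a on 1425335_at and Cd3d were lower at vehicle week 12 than at vehicle week 0 on all arrays, by -0.49 (SE 0.57) and -0.82, and neither was called (limma adjusted p = 1 for both). These 2 of the 19 stand beside 3.59% of all probe sets that were lower without overlap. Cd8a on 1444078_at differed by -0.37 between vehicle week 12 and vehicle week 0 (SE 0.60, 95% interval -1.68 to 0.94).

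The calls of Cd8a depended on the shared estimate of spread. When only the 6 arrays of the 2 groups were fitted, the differences kept their size but were not called, with limma adjusted p = 0.0831 and 0.084 against baricitinib week 0 and 0.0847 and 0.0903 against vehicle week 12. Without vehicle week 12 replicate 1 or replicate 2, the differences from vehicle week 12 lay between -4.49 and -3.94 and were not called (limma adjusted p from 0.0534 to 0.0681). Without the pair of arrays with the lowest correlations, both probe sets stayed called in both comparisons. The differences were -3.64 and -4.24 from baricitinib week 0 and -3.78 and -3.83 from vehicle week 12. As the mean of its 5 probe sets, Cd8a differed by -2.11 and -2.22 in these comparisons and stayed called.

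Cd8a was also set against other members on its own array, on the brightest probe set of each. Cd8a minus Cd4 was -0.34, 1.80 and 0.65 at baricitinib week 12, 5.51, 5.18 and 4.55 at baricitinib week 0, 6.07, 4.52 and 5.02 at vehicle week 12 and 4.68, 5.87 and 6.62 at vehicle week 0. The arrays of baricitinib week 12 lay below all others. The difference was -4.37 from baricitinib week 0 and -4.50 from vehicle week 12 (exact permutation test, two-sided, p = 0.1 each, the smallest that 3 against 3 arrays can give). With the mean over the probe sets of each gene, the differences were -2.06 and -2.21. Since Cd4 was under the median on every array, these differences mostly repeat those of Cd8a and are no separate support for them.

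Cd8a minus Cd3e was -5.48, -3.08 and -5.14 at baricitinib week 12, -0.09, 0.26 and -0.97 at baricitinib week 0, 0.04, -0.54 and -0.11 at vehicle week 12 and -0.40, -0.02 and 0.24 at vehicle week 0. The highest array of baricitinib week 12, at -3.08, lay under the lowest of the other groups, at -0.97. Only differences between groups are read here, since the 2 probe sets have no common scale. Cd3e was taken after the data were seen, since both Cd4 probe sets were dim, and its own level differed little between groups, so that the differences of -4.30 and -4.36 repeat the fall of Cd8a and are a description with no test.

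**Figure D3:**
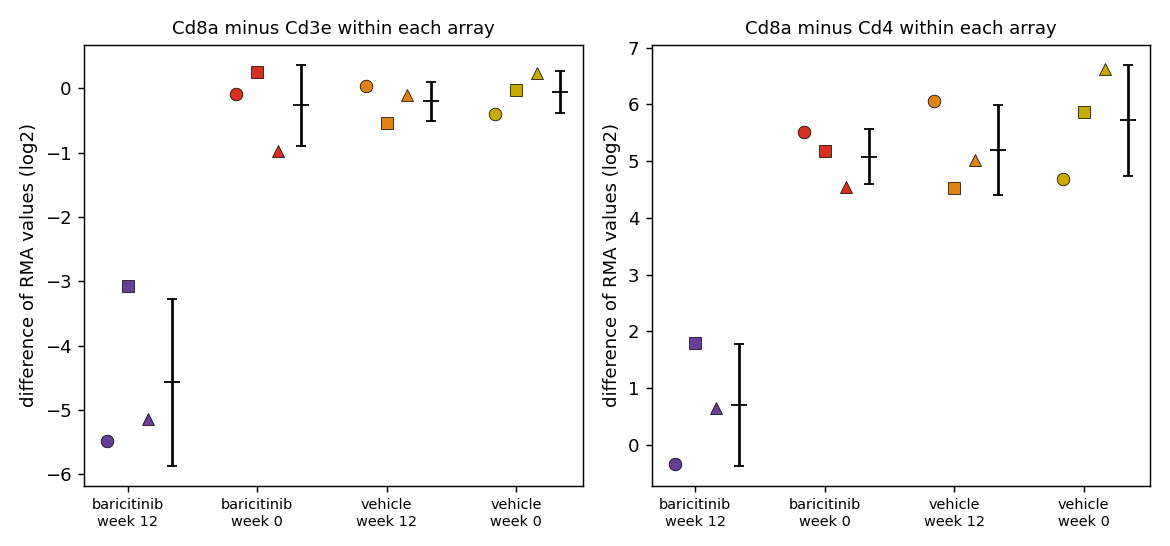
Cd8a minus Cd3e (left) and Cd8a minus Cd4 (right) within each array, as differences of RMA values (log2, vertical axis) by group (horizontal axis). Points are the 3 mice of a treatment (circle 1, square 2, triangle 3) and black bars the mean and SD, and the baricitinib week 12 arrays lie below all others in both, from -5.48 to -3.08 on the left.

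The windows before the gene starts of 3 members are shown because their levels differed in how they moved, Cd8a called lower, Zap70 below vehicle week 12 without overlap on 2 probe sets but not called, and Cd3g overlapping between groups. RefSeq (GRCm38.p6) gave windows for 7 of the 10 genes. Each line gives the 250 bases before a start, 5′ to 3′ on the gene's strand, at chr6:71373177-71373426 (plus strand) for Cd8a, chr1:36761548-36761797 (plus strand) for Zap70 and chr9:44980432-44980681 (minus strand) for Cd3g. Capitals mark the letters GGAA or TTCC, the core that Ets factors bind, read on either strand.
Cd8a: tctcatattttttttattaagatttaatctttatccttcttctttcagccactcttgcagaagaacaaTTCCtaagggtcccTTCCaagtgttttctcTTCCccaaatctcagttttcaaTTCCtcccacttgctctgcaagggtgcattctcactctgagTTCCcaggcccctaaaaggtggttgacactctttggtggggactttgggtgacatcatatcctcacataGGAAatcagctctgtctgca
Zap70: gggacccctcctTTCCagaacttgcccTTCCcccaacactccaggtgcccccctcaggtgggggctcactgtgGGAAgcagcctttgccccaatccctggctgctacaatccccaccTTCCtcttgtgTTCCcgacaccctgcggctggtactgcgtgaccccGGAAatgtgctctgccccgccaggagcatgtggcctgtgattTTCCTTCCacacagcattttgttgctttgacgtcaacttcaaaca
Cd3g: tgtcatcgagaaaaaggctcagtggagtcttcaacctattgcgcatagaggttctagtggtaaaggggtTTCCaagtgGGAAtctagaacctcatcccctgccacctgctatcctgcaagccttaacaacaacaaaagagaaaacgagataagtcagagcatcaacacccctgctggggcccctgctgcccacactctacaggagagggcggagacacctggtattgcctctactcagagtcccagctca
The core occurs 6 times before Cd8a, 8 times before this start of Zap70 and 2 times before Cd3g, and 93.4% of 32851 windows of this length hold it at least once. The letters TTCNNNGAA, which STAT factors bind and which read the same on both strands, are in none of these 3 windows and in 7.0% of all, and they can overlap the Ets core. The E box CANNTG, also the same on both strands, occurs 2 times before Cd8a and 3 times before each of Zap70 and Cd3g, and 66.2% of all windows hold it. RefSeq gives 2 other starts for Zap70, whose windows hold the Ets core 7 and 0 times. In windows not shown, the Ets core occurs 6 times before Cd3d, 5 times before Cd3e and 1 time before Cd247, none of them called. Of the 10 windows of member genes 1 holds TTCNNNGAA, that of Cd3d. These matches describe the letters only.

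Other genes that work with the receptor were read from lists, and in whole skin their RNA can come from cells other than T cells. Of 25 measured kinases, adaptors and enzymes next to the receptor, 1 was called lower and 0 higher at baricitinib week 12 against baricitinib week 0, and 0 against vehicle week 12, with median differences of -0.23 and -0.36. The calls of list genes are adjusted over all 45037 probe sets. Of these, 0.875% were called lower and 0.362% higher against baricitinib week 0, and 0.429% and 0.151% against vehicle week 12. A separate fit took 1 probe set per gene and adjusted over 18193 genes. It called 434 lower and 191 higher against baricitinib week 0, and 211 and 72 against vehicle week 12. The called gene of the list was Lcp2, which encodes SLP-76, a scaffold that Zap70 phosphorylates. Lcp2 read 6.45, 6.50 and 6.68 at baricitinib week 12, 7.59, 7.86 and 7.56 at baricitinib week 0, 7.34, 7.73 and 7.24 at vehicle week 12 and 8.36, 7.72 and 7.88 at vehicle week 0. It was lowest on the 3 baricitinib week 12 arrays and differed by -1.13 from baricitinib week 0 (SE 0.23, limma adjusted p = 0.0422) and by -0.89 from vehicle week 12 (limma adjusted p = 0.138). A second, dimmer probe set of Lcp2 differed by -0.30 from baricitinib week 0 (limma adjusted p = 0.758). The brightest genes of this list, Plcg1 and Nck2, differed by 0.17 and -0.58 from baricitinib week 0 and were not called (limma adjusted p = 0.893 and 0.611).

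Of 19 measured regulators of the signal, 2 were called lower against baricitinib week 0 and 1 against vehicle week 12, none higher, with a median of -0.36 in both. Dok2, an adaptor that restrains signalling, read 5.62, 5.22 and 5.41 at baricitinib week 12 and 6.99, 6.97 and 6.92 at baricitinib week 0, a difference of -1.54 (SE 0.31, limma adjusted p = 0.0401). It was not called against vehicle week 12, where it read 6.29, 6.92 and 7.02. At vehicle week 0 Dok2 read 6.94, 5.81 and 5.87, with the last 2 near the highest value of baricitinib week 12. Pag1, which holds the inhibitory kinase Csk at the membrane, differed by -1.0 from baricitinib week 0 (SE 0.21, limma adjusted p = 0.0429), while its other 3 probe sets differed by -0.81 to -0.13 and were not called. Against vehicle week 12 Pag1 was not called, with 8.71, 8.48 and 8.14 at baricitinib week 12 and 8.98, 8.88 and 8.82 there. At vehicle week 0 it read 9.60, 9.37 and 9.47. Ptpn22, a phosphatase that acts on Lck and Zap70, read 7.72, 7.02 and 6.66 at baricitinib week 12 and 8.91, 8.67 and 8.92 at vehicle week 12, a difference of -1.70 (SE 0.31, limma adjusted p = 0.038). From baricitinib week 0 it differed by -1.25 (limma adjusted p = 0.0818). Cblb and Dgka, the brightest of the list, differed by -0.24 and 0.08 from baricitinib week 0 and were not called.

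Of 4 measured receptor chain genes, none was called in either comparison, and the 2 bright ones belong to the gamma locus of gamma delta T cells. Trgv1 read 8.12, 7.97 and 7.50 at baricitinib week 12, 8.37, 8.60 and 8.10 at baricitinib week 0, 8.63, 8.67 and 8.01 at vehicle week 12 and 8.12, 9.0 and 9.01 at vehicle week 0. Trgv4 read 7.42, 7.58 and 8.10 at baricitinib week 12, 7.52, 6.74 and 6.84 at baricitinib week 0, 7.52, 7.59 and 7.48 at vehicle week 12 and 6.78, 7.64 and 8.22 at vehicle week 0. These 2 differed from baricitinib week 0 by -0.49 (SE 0.31) and 0.67 (SE 0.35), and from vehicle week 12 by -0.57 and 0.17. Variable gene segments are alike, and these probe sets may read more than 1 of them. Of 5 measured CD2 ligands and partners, none was called, and all 5 were below 0 in both comparisons, with medians of -0.64 and -0.56. The brightest of these, Cd2ap and Cd2bp2, differed by -0.10 and -0.96 from baricitinib week 0 (limma adjusted p = 0.917 and 0.108).

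**Figure D4:**
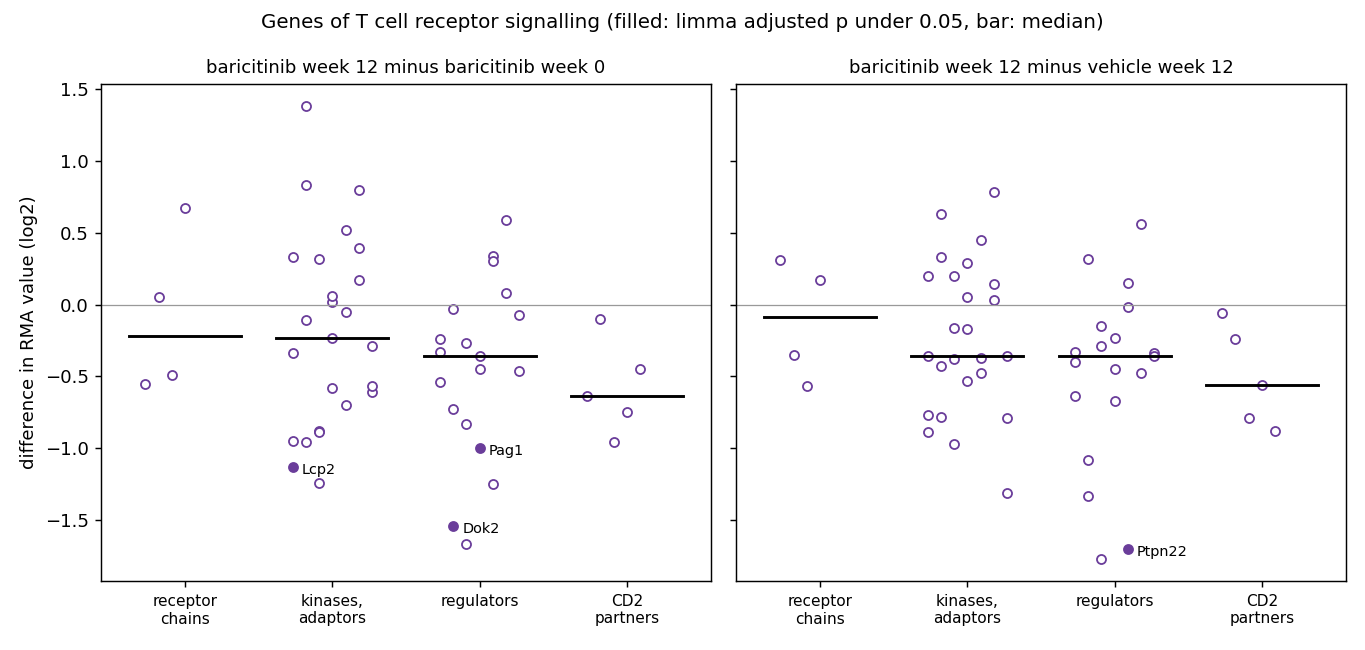
Differences in RMA value (log2, vertical axis) of genes that work with the T cell receptor, in 4 lists (horizontal axis), for baricitinib week 12 against baricitinib week 0 (left) and against vehicle week 12 (right). Each point is a gene by its brightest probe set, bars are medians, and filled points were called by limma: Lcp2, Pag1 and Dok2 on the left and Ptpn22 on the right.

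Markers of the other cells in skin are given beside Cd8a. Of 7 leukocyte genes, 0 were called, and all 7 were below 0 in both comparisons, with medians of -0.53 from baricitinib week 0 and -0.30 from vehicle week 12. The mean level of these 7 was 9.60 to 9.82 at baricitinib week 12, 9.97 to 10.36 at baricitinib week 0, 9.87 to 10.25 at vehicle week 12 and 10.02 to 10.76 at vehicle week 0. Their part in the fall of Cd8a was not tested. Of 6 NK cell markers 1 was called lower in both comparisons, Gzma, a granzyme that killer T cells make too, by -5.42 (SE 0.90, limma adjusted p = 0.0176) and -5.48 (SE 0.90, limma adjusted p = 0.0247). The mean level of these 6 was 2.81 to 3.68 at baricitinib week 12, 4.61 to 5.15 at baricitinib week 0, 4.40 to 4.56 at vehicle week 12 and 4.74 to 5.33 at vehicle week 0, and the defining marker Ncr1 averaged 2.39, 3.34, 2.70 and 2.89 in these groups. All Ncr1 values, from 1.89 to 4.32, were under the array medians, and at levels this low a change may not be detectable. The mean level of the 6 includes the large fall of Gzma and was not taken without it. The median differences of the 6 were -0.88 from baricitinib week 0 and -0.35 from vehicle week 12. Of 7 markers of helper and regulatory T cells 1 was called lower in both, the costimulatory receptor gene Icos, by -2.11 (SE 0.36, limma adjusted p = 0.0203) and -2.21 (SE 0.36, limma adjusted p = 0.0242), although its other 2 probe sets were not called. The paper places Icos in its signature of cytotoxic T cells, together with Cd8a, Gzmb and Prf1, and the mean of this list includes Icos. The mean level of these 7 was 5.20 to 5.41 at baricitinib week 12, 5.55 to 5.91 at baricitinib week 0, 5.84 to 5.94 at vehicle week 12 and 5.84 to 5.95 at vehicle week 0. Of the 7, 5 were below 0 in both comparisons. Foxp3, which defines regulatory T cells, differed by 0.21 and 0.19. Il2ra, also on this list, read 4.66, 5.24 and 4.56 at baricitinib week 12 and 6.36, 4.95 and 6.37 at baricitinib week 0. At vehicle week 12 Il2ra read 5.59, 6.23 and 5.77, and it was not called.

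Of the other lists, none of 3 markers of epidermal gamma delta T cells, 5 of B and plasma cells, 9 of macrophages, 7 of dendritic cells, 3 of Langerhans cells, 6 of mast cells, 6 of fibroblasts, 4 of endothelial cells or 4 of skeletal muscle was called in either comparison. Of 7 keratinocyte genes 1 was called higher in both, Krt15, and of 3 adipocyte genes 1 was called higher against baricitinib week 0, Cidec, by 2.76, and 0 against vehicle week 12. The 3 adipocyte genes had medians of 2.44 from baricitinib week 0 and 2.10 from vehicle week 12, and their mean level was 11.16 to 11.44 at baricitinib week 12, 8.62 to 10.03 at baricitinib week 0, 8.81 to 10.23 at vehicle week 12 and 9.07 to 9.64 at vehicle week 0, so that baricitinib week 12 did not overlap the other groups. The mean level of the 4 endothelial genes at baricitinib week 12 did not overlap the other groups either, with 6.74 to 6.95 at baricitinib week 12 and 5.98 to 6.39 in the other groups. The mean level of the 7 keratinocyte genes was 12.28 to 12.79 at baricitinib week 12, 12.09 to 12.28 at baricitinib week 0, 12.32 to 12.39 at vehicle week 12 and 12.25 to 12.36 at vehicle week 0. The part of other cells in the Cd8a values was not tested.

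Over the 12 arrays, Cd8a on 1444078_at followed its second probe set with a Pearson r of 0.98, Zap70 on 1440178_x_at with 0.84 and Cd2 with 0.65. It followed Cd3d with 0.34, Cd3e with 0.31 and Cd3g with -0.14. The r of Cd3e was 0.82 with Cd3d, 0.72 with Cd2 and 0.69 with Cd3g. Genes that are not members were closer to Cd3e, among them Hoxb3 and Arfgap3 with 0.94 each. The 10 other genes most like Cd8a were Glipr1 (0.98), Klrc1 (0.97), Slc25a45, 9330175E14Rik, Gimap3, AU020206, Ccl5, Ikzf3, Ablim1 and Yaf2 (0.94 or more). Among these Klrc1 encodes a receptor of NK cells and killer T cells, and Ccl5 a chemokine that these cells release. The closest to Cd4 on 1419696_at were Azin2 with 0.82, Mast2 with 0.81 and Emp3 with 0.81. These values describe 12 arrays that share their group, mouse and RNA quality, and genes most alike were picked out of 45037 probe sets.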

How the data were processed

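The data are 12 Affymetrix arrays (a one-colour whole-genome mouse array) of skin from 6 mice, 3 in each of 4 groups. The authors amplified and biotin-labelled total RNA and applied RMA to each of their experiments separately. Their deposited log2 values were taken without further normalization. The version of RMA is not given in the sources used here. The authors removed arrays that failed quality control, and all 12 were used here. Precision is limited by the small number of arrays.

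After 64 control probe sets were dropped, 45037 were tested, of which 34945 had a single symbol in the platform annotation, 932 several and 9160 none. Under R 4.3.3, limma 3.58.1 fitted a mean for each group (residual degrees of freedom 8, prior 3.54), and the fit was checked on simulated data. The Benjamini-Hochberg adjustment ran over all probe sets, with a threshold of 0.05. Exact permutation tests used Python 3.11.15, and figures were drawn with matplotlib 3.10.9. All probe sets of the members are reported. For a gene of a list the probe set with the highest mean was taken, and up to 5 called genes with the largest changes and the 2 brightest others were named per list. Cd3e as an anchor for likeness, Foxp3, Il2ra and Ncr1 were named after their values were seen. The members and lists were chosen with earlier results of these data known.

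The labels' descriptions carry the same number at week 12 and week 0 within a treatment, and these were taken as animal numbers that pair the arrays. Between the 2 arrays of a mouse, deviations from the group means had correlations of -0.36, -0.51 and 0.47 with baricitinib and 0.44, -0.13 and 0.49 with vehicle. The alternatives tried were leaving out dim probe sets, a variance trend, the mouse as a block, other samples in the fit, cyclic loess, median centring, array weights, 1 value per gene and leaving out each array.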

Additional observations from a re-analysis of the deposited data

How the results depend on the processing

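Against baricitinib week 0, 2 of 19 member probe sets were called, and against vehicle week 12 also 2. With only the 2 groups in the fit both counts were 0. With array weights, which ran from 0.132 to 32.1 and did not converge, the counts were 10 and 11, with 2 in vehicle week 12 against vehicle week 0 and 6 in the difference of changes. Over all 45037 probe sets this setting called 5279 lower and 5998 higher, 5782 and 5423, 2575 and 2411, and 3345 and 3245. With 1 value per gene, the brightest probe set or the mean, 1 of 9 genes was called in each comparison, Cd8a. Leaving out each array in turn gave 2 to 3 calls against baricitinib week 0, the third being Cd247, and 0 to 2 against vehicle week 12, with differences of Cd8a between -5.20 and -3.58 throughout. When each mouse was a fixed replicate block, 2 were called against baricitinib week 0 (limma adjusted p = 0.0371 and 0.0467 for Cd8a) and 0 in vehicle mice and in the difference of changes, so that the block changed no call of a member. Over all probe sets it gave 130 lower and 28 higher calls, against 394 and 163 without it. The comparisons between treatments could not be fitted with a fixed block. As a random replicate block the mouse left 2 calls in each of the first pair of comparisons and 0 in the others (limma adjusted p = 0.0109 and 0.0117 for Cd8a against vehicle week 12), with 393 lower and 160 higher calls over all probe sets against baricitinib week 0. Without the pair of arrays with the lowest correlations, chosen after seeing the data, the counts were 2 and 2. Of 1978 alternatives of 95 single differences, 1944 kept their side of the threshold, 26 became called (25 with array weights) and 8 lost their call. No called difference changed sign, and 124 that were called in neither fit did. Leaving out 1 array at a time moved Cd8a minus Cd4 between -5.04 and -3.85 and Cd8a minus Cd3e between -5.11 and -3.84. Without the pair with the lowest correlations, these differences from baricitinib week 0 were -3.80 and -3.58. Low values near the array median and 3 arrays a group limit the sizes of all changes.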
